A study of Caenorhabditis elegans with 12 samples.

Results

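The arrays numbered 3 and 4 of each genotype were compared with the arrays numbered 1 and 2 of the same genotype. Each array measured whole embryos of the nematode Caenorhabditis elegans, collected at the 3-fold stage. All arrays of the series entered by the replicate number in their labels. Arrays 3 and 4 gave 6 of the 11 different arrays, and arrays 1 and 2 gave the other 5. The series holds 12 deposited columns, but the double mutant's columns 1 and 2 hold the same value for each of the 22625 probe sets and were counted as 1 array, called array 1-2 here. The study profiled targets of DAF-19. It used strain JT6924, a double mutant with the alleles daf-19(m86) and daf-12(sa204), strain JT204, a single mutant with daf-12(sa204), and JT5010, the wild type (WT) of the N2 Bristol background. Total RNA was labelled with biotin. The double mutant thus carries the daf-12 allele of the single mutant, and the WT carries neither. The labels give the same stage, tissue and protocol for every array and do not say what, apart from the number, sets replicates 3 and 4 apart from replicates 1 and 2.

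The 3-fold stage is the last part of embryogenesis, after the epidermis has squeezed the embryo into a folded worm. In it the nervous system and muscles become active, epidermal cells secrete the first cuticle, and the larva prepares to hatch, so the transcripts of a collected embryo population depend on how far its embryos have gone. DAF-19 is the RFX transcription factor that switches on the genes of sensory cilia. The dauer decision, a choice between larval forms, runs through the nuclear hormone receptor DAF-12. Affymetrix arrays also carry probe sets for bacterial RNAs added on purpose during labelling (poly-A controls) or at hybridization, which report on handling and not on the worm.

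The difference between the sets was the first feature of the data. The first principal component of the 22548 tested probe sets held 38.1% of the variance and placed arrays 3 and 4 between 4.32 and 56 and arrays 1 and 2 between -54.5 and -22.5, so the sets did not overlap on it. The array most correlated with any given array came from the same set in 11 of 11 cases and from the same genotype in 5 of 11. Summed over probe sets, the set took 34.8% of the variance, genotype 18.7%, their combination 21.1% and the spread within a genotype and set 25.5%. The second component, with 22.5%, parted arrays of replicates 3 and 4 from each other: WT array 3 lay at 54.3 and double mutant arrays 3 and 4 at 40.2 and 29.9, while WT array 4 lay at -1.87 and daf-12 arrays 3 and 4 at -21 and -32.9. The arrays of a pair were closest in double mutant 3 and 4, where the SD of the probe set differences was 0.231 on the log2 scale, and farthest apart in WT, at 0.568 for arrays 3 and 4 and 0.574 for arrays 1 and 2.

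**Figure D1:**
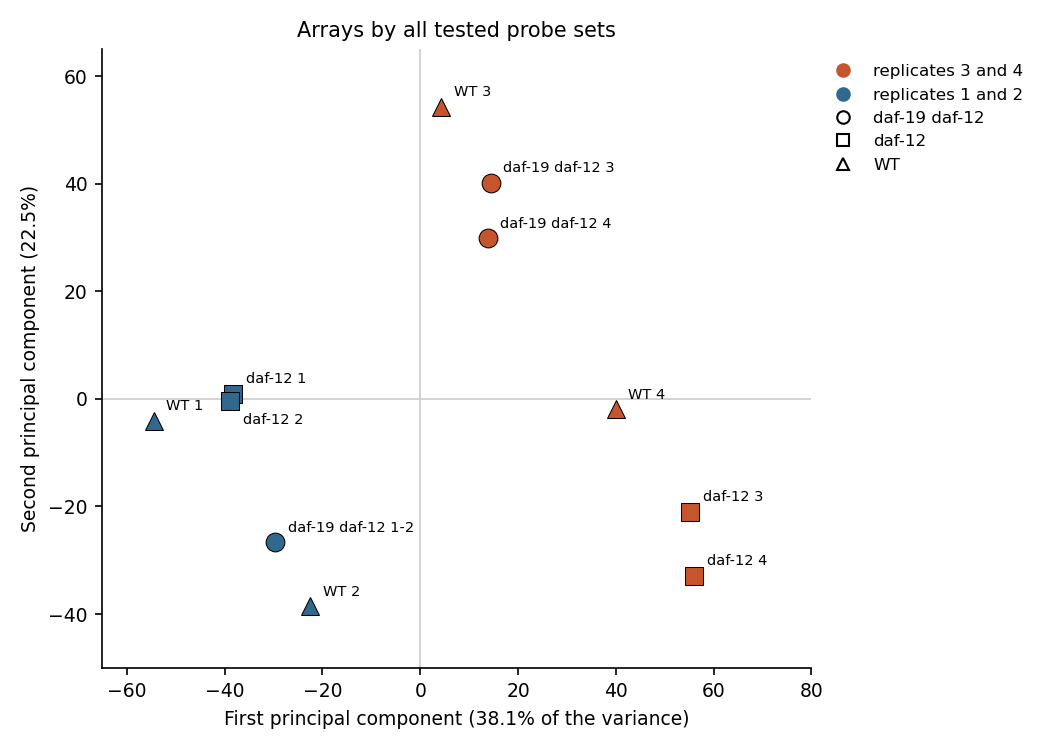
Each point is 1 array on the first (horizontal) and second (vertical) principal component of all tested probe sets; colour gives the set and shape the genotype. All 6 arrays of replicates 3 and 4 lie right of 0 and all 5 arrays of replicates 1 and 2 left of it, and WT array 3 lies with the double mutant while WT array 4 lies nearer to daf-12.

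The added poly-A controls separated the sets completely. The mean log2 level of their 24 probe sets ran from 7.16 to 10.21 with a median of 8.19 on arrays 3 and 4, against 4.18 on double mutant array 1-2, 4.32 and 4.25 on daf-12 arrays 1 and 2, and 4.19 and 4.16 on WT arrays 1 and 2. Every array of replicates 3 and 4 was thus far above every array of replicates 1 and 2, and WT array 3 was the highest. By transcript the difference was 5.97 for dap, 3.78 for thr, 3.50 for phe and 3.10 for lys. The probe sets of trpn stayed low, at 3.53 to 3.68 on arrays 3 and 4 and 3.45 to 3.57 on arrays 1 and 2. These controls are given without a test, since their levels were known when the sets were chosen for comparison.

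The hybridization controls, bacterial bio genes and phage cre that are spiked in after labelling, were also higher in replicates 3 and 4. Their 18 probe sets averaged 9.89 to 11.02 on arrays 3 and 4 and 8.598 to 9.375 on arrays 1 and 2. The difference was 1.41 for bioB, 1.63 for bioC and 1.72 for bioD but 0.26 for cre, the brightest of them. WT array 3 was again the highest.

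**Figure D2:**
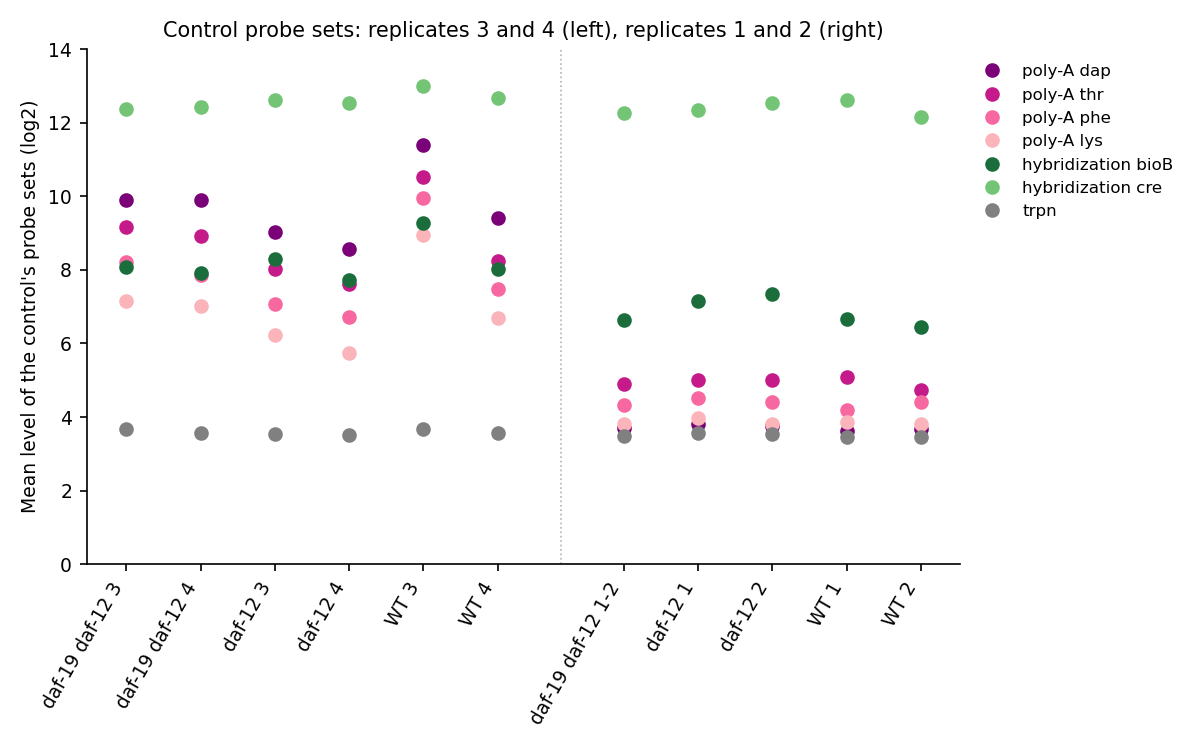
Mean log2 level of the probe sets of each control (vertical axis) on each array, with replicates 3 and 4 left of the dotted line and replicates 1 and 2 right of it; each point is 1 control on 1 array. The 4 poly-A controls are high on the left and low on the right, and trpn is low on both sides.

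Global measures of the arrays differed less. Array medians ran from 6.20 to 6.36 on arrays 3 and 4 and from 6.24 to 6.33 on arrays 1 and 2. The SD of the probe set levels was 2.24 to 2.33 on arrays 3 and 4 and 2.18 to 2.28 on arrays 1 and 2, a difference of 0.096 (exact permutation within genotype, two-sided, p = 0.019, adjusted over 4 measures 0.074, with 0.0093 the smallest p possible). Their interquartile range was 3.39 to 3.80 on arrays 3 and 4 and 3.22 to 3.62 on arrays 1 and 2. It differed by 0.32 (exact permutation p = 0.037, adjusted 0.074). The 3′ minus 5′ signal of the worm control genes, a measure of RNA integrity, was 0.34 to 0.60 on arrays 3 and 4 and 0.21 to 0.49 on arrays 1 and 2 (exact permutation p = 0.19, adjusted 0.25). Single control genes did not share a direction: the 3′ minus 5′ signal of the ubiquitin control was 2.83 to 3.14 on arrays 3 and 4 against 3.12 to 3.42 on arrays 1 and 2, and that of the catalase control was 0.86 to 1.66 against 0.48 to 0.93. The defining markers of body wall muscle, pharynx, intestine, epidermis and neurons averaged 8.27 to 10.86 on every array, while those of the mother's yolk averaged 4.67 to 5.63. The part of labelling, hybridization and RNA quality in the gene results below was not tested.

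With genotype in the model, limma called 2449 probe sets higher (10.9% of those tested) and 3083 lower (13.7%) in replicates 3 and 4 at an adjusted p under 0.05. With 1 probe set per named gene, the one with the highest mean, 1898 of 17118 genes were called higher (11.1%) and 2176 lower (12.7%). The sets did not overlap within any genotype, in 1 direction, in 1437 genes that were higher (8.39%) and in 1845 that were lower (10.8%). The median difference of all probe sets was -0.01 and its SD 0.49. Leaving out daf-12 array 3 gave 1543 higher and 1918 lower probe sets, and no other single array moved either count by over 1.5 times. For the named genes, it gave 1168 higher and 1289 lower, and 2 further arrays did so in 1 direction: 1258 were higher without WT array 4, and 1383 lower without daf-12 array 2.

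The calls were not spread evenly over brightness. The probe sets were ranked by mean level into 5 classes of equal size. Of those in class 2, the next to dimmest, 23.9% were called lower and 6.01% higher in replicates 3 and 4, with a median difference of -0.20. In class 4, 9.45% were called lower and 17.8% higher, with a median of 0.16. The brightest class had a median of 0.12 and the dimmest -0.07.

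**Figure D3:**
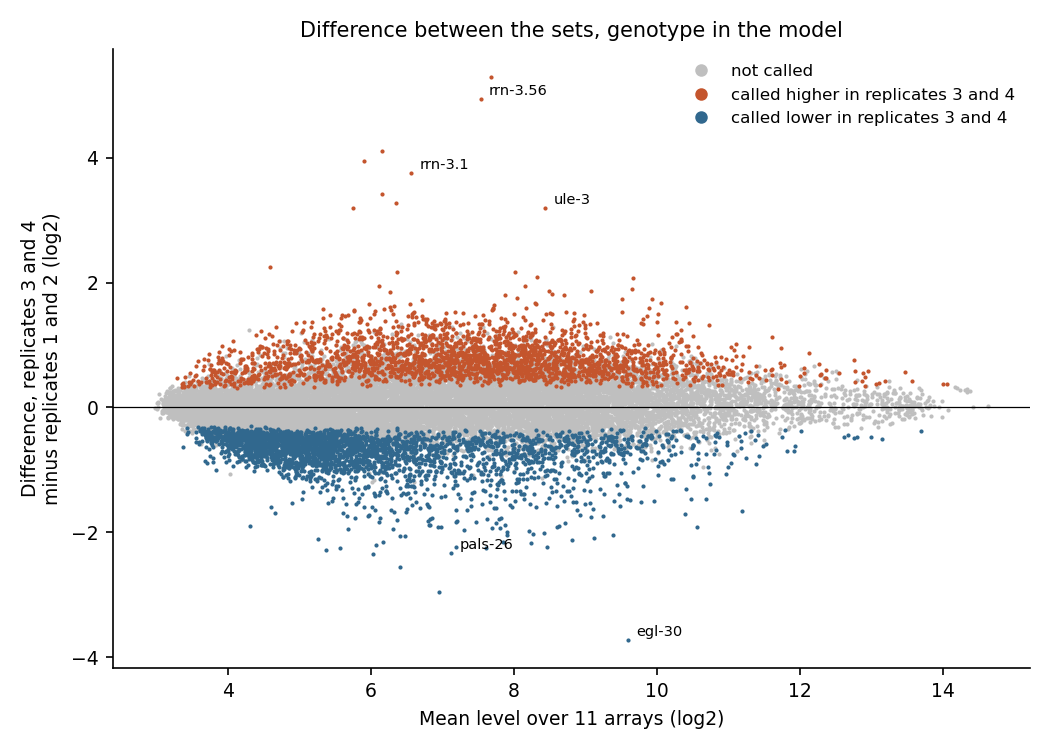
Each point is 1 probe set, with its mean log2 level over 11 arrays (horizontal) and its log2 difference, replicates 3 and 4 minus replicates 1 and 2 (vertical); probe sets called higher and lower are coloured and a few genes are named. Of the 5 brightness classes, class 2 has the highest share called lower (23.9%), and rrn-3.56 and egl-30 stand far from the bulk.

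Ribosomal RNA rose most among genes with 1 name. rrn-3.56, a copy of the large ribosomal RNA gene, ran from 8.38 to 10.58 with a median of 10.08 on arrays 3 and 4, against 5.01 on double mutant array 1-2, 4.91 and 4.91 on daf-12 arrays 1 and 2, and 4.54 and 4.86 on WT arrays 1 and 2. Arrays 1 and 2 were all low, and no array of either set came close to the other set. The difference was 4.94 ± 0.31 (SE), 30.6-fold, with limma's adjusted p at 4.2e-05.

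rrn-3.1, another copy, behaved the same way with a stronger mark of genotype. Its brightest probe set stood at 10.59 and 11.33 on daf-12 arrays 3 and 4, 8.31 and 6.42 on WT arrays 3 and 4, and 5.97 and 6.31 on double mutant arrays 3 and 4, against 4.35 to 4.88 on the 5 arrays 1 and 2. The 3 genotypes were therefore unequal within replicates 3 and 4, with daf-12 above the others. The difference over all genotypes was 3.76 ± 0.66 (SE; limma adjusted p = 0.0038), and the 5 probe sets of the gene gave 3.20 to 3.95. Ribosomal RNA is made without the poly-A tail of messengers. The 8 messenger genes of the mitochondrial genome with a probe set (ND1, ND4, ND5, ATP6, COX1, COX2, COX3 and CYTB), looked up after the ribosomal values were seen, included 0 called in limma. Their differences ran from 0.01 for ND4 to 0.51 for COX2.

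Next after ribosomal RNA came ule-3, which encodes a secreted protein known from the uterine lumen. ule-3 was at 11.33 and 11.89 on daf-12 arrays 3 and 4, 10.48 and 8.31 on WT arrays 3 and 4, and 8.67 and 8.08 on double mutant arrays 3 and 4, against 6.28 to 7.29 on arrays 1 and 2. As for rrn-3.1, daf-12 arrays 3 and 4 were the highest and WT array 3 came after them, and the sets did not overlap. The difference was 3.20 ± 0.45 (SE; limma adjusted p = 0.0014). A second probe set of ule-3 was called in the opposite direction, at -1.17, so the direction for this gene rests on the probe set.

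The genes that followed were higher by about 2 on the log2 scale. R11A5.3 had a median of 8.70 on arrays 3 and 4 (8.09 to 10.5), against 8.02 on double mutant array 1-2, 6.56 and 6.44 on daf-12 arrays 1 and 2, and 6.28 and 6.22 on WT arrays 1 and 2. Only double mutant array 1-2 came near the lowest of arrays 3 and 4. Its difference was 2.17 ± 0.16 (SE; limma adjusted p = 9.5e-05). idpa-1 ran from 6.66 to 7.64 on arrays 3 and 4 and from 4.92 to 5.51 on arrays 1 and 2, a gap of over 1 with no overlap, and differed by 1.85 (adjusted p = 0.00037). The group further held 2 cuticle collagen genes, col-156 at 1.82 and col-182 at 1.81, the nematode-specific peptide gene nspe-5 at 1.87, phat-8 at 1.87 and the beta-tubulin gene tbb-6 at 1.80. Among the 15 genes named as highest, the others were T11B7.2, C14C6.5, Y41C4A.32, C50F7.5 and F35E12.10, at 1.73 to 1.95.

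In the other direction egl-30 had the largest difference among genes with 1 name. egl-30, the Gq alpha subunit that drives neurotransmitter release and muscle contraction, ran from 7.68 to 8.24 with a median of 7.90 on arrays 3 and 4, against 11.59 on double mutant array 1-2, 11.50 and 11.06 on daf-12 arrays 1 and 2, and 11.70 and 12.27 on WT arrays 1 and 2. The 6 arrays 3 and 4 lay close together, and each was far below the lowest of arrays 1 and 2. The difference was -3.72 ± 0.17 (SE), 13.2-fold lower, with limma's adjusted p at 6.5e-06. A second, dimmer probe set of egl-30 was at -2.24.

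dpy-1, a gene of body shape, showed the same lack of overlap. It ran from 5.61 to 6.40 with a median of 6.25 on arrays 3 and 4, against 8.19 on double mutant array 1-2, 8.62 and 8.54 on daf-12 arrays 1 and 2, and 8.16 and 8.70 on WT arrays 1 and 2. Each set was tight, and the difference was -2.24 ± 0.14 (SE; limma adjusted p = 4.1e-05). kin-2, the regulatory subunit of protein kinase A, ran from 7.39 to 8.46 on arrays 3 and 4 and from 9.72 to 10.26 on arrays 1 and 2, with a difference of -2.13 (adjusted p = 0.00022). tax-6, the catalytic subunit of calcineurin, ran from 7.46 to 7.93 on arrays 3 and 4 and from 9.15 to 10.47 on arrays 1 and 2, with a difference of -1.90 (adjusted p = 0.00058). These sets again stood apart with no overlap.

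Further genes of the lower group were hpk-1, a homeodomain-interacting kinase (-2.03), dab-1, the Disabled adaptor of receptor uptake (-1.98), and dpy-21, a component of X chromosome dosage compensation (-1.86). pals-26 (-2.34), bris-1 (-2.16), C09B8.4 (-2.16), Y46G5A.18 (-1.89), F26A10.2 (-1.89) and pigl-1 (-1.84) also fell. fasn-1, the fatty acid synthase, ran from 9.25 to 10.43 on arrays 3 and 4 and from 11.197 to 12.004 on arrays 1 and 2, and differed by -1.91 (limma adjusted p = 0.0003). acdh-2, an acyl-CoA dehydrogenase gene, had a difference of -1.95 but a wide spread on arrays 1 and 2, with WT array 2 at 9.75 and WT array 1 at 5.78. Its adjusted p was 0.049, and it was called in 9 of 23 alternative settings.

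**Figure D4:**
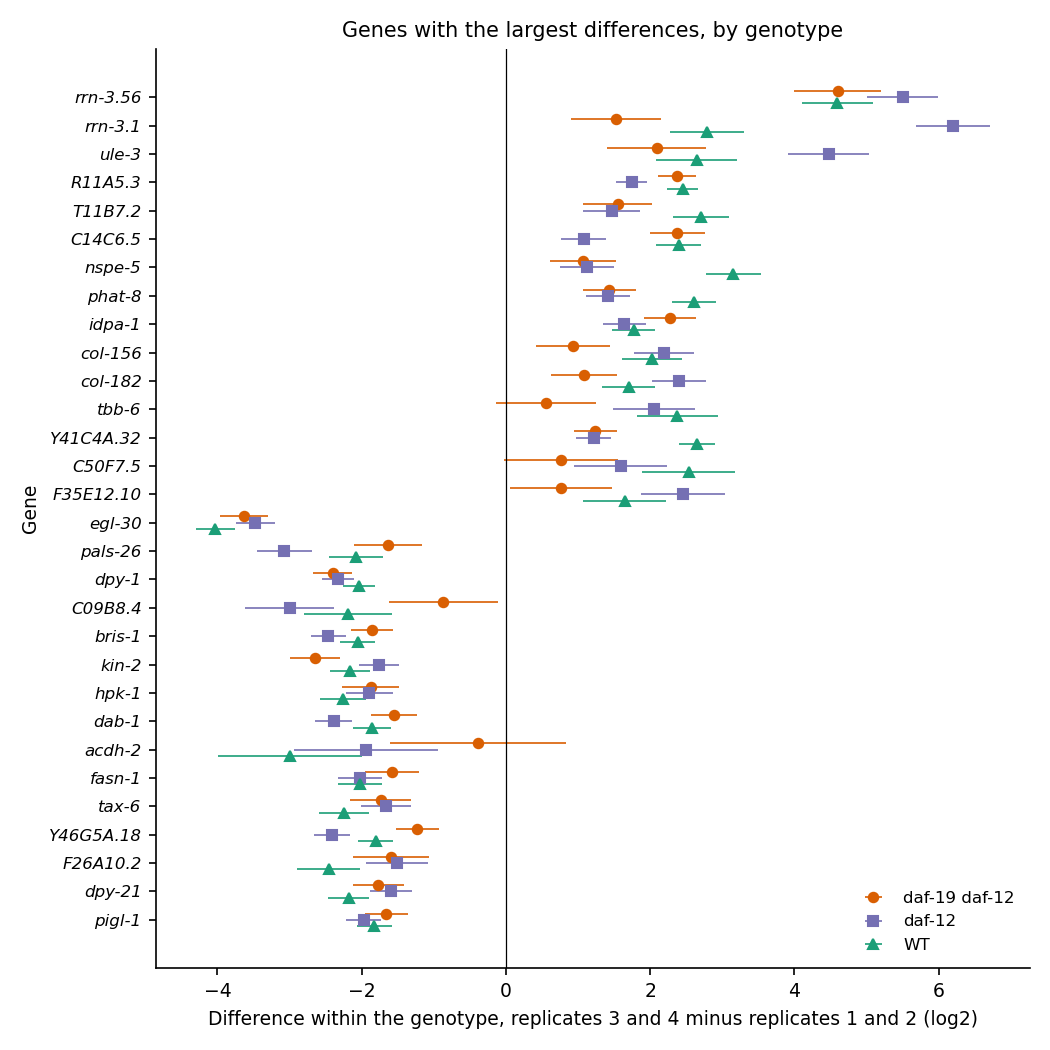
For the 30 genes named as highest and lowest, points give the log2 difference within each genotype, replicates 3 and 4 minus replicates 1 and 2 (horizontal), with bars for the standard error of the 6-group model. The genes were chosen for sets that do not overlap in any genotype, so their shared direction is no result; rrn-3.1 and ule-3 have their largest difference in daf-12.

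Gene lists were then read for signs of embryo timing, tissue and condition, each as the number of its measured genes called and the median of its differences, beside 11.1% higher, 12.7% lower and a median of 0.0007 over all 17118 genes. Whole embryos were used, so fewer cells of a type and less RNA per cell cannot be told apart. Genes of large families with like sequences, such as collagens, major sperm proteins, histones and chemoreceptors, may share probe sets.

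Genes of the larval cuticle were higher in replicates 3 and 4. Of 128 measured col genes, which encode cuticle collagens, 60 were called higher (46.9%) and 3 lower, and the median difference was 0.55. As a mean over the list, each array's deviation from the genes' own means was 0.01 and 0.08 on double mutant arrays 3 and 4, 0.30 and 0.21 on daf-12 arrays 3 and 4, and 0.56 and 0.22 on WT arrays 3 and 4, against -0.30 on double mutant array 1-2, 0.16 and -0.17 on daf-12 arrays 1 and 2, and -0.52 and -0.56 on WT arrays 1 and 2. The sets stood apart in each genotype, and daf-12 array 1 was the one array 1 or 2 above 0. For col-130, arrays 3 and 4 ran from 9.96 to 11.27 with a median of 10.73, against 9.49 on double mutant array 1-2, 10.73 and 9.56 on daf-12 arrays 1 and 2, and 8.44 and 7.92 on WT arrays 1 and 2. daf-12 array 1 was level with arrays 3 and 4, while the WT arrays 1 and 2 were the lowest, and the difference was 1.496 ± 0.36 (SE; limma adjusted p = 0.015). Among 18 collagens of the furrows and of body shape, 4 were called higher and 1 lower, with a median of 0.36. sqt-2 at 1.08, lon-3 at 0.90 and rol-6 at 0.82, collagens whose mutations change body form, were among them, and without WT array 4 the count called higher was 2. The median of the col genes was 0.35 in the double mutant, 0.24 in daf-12 and 0.92 in WT. In that order 0, 14 and 58 of the 128 were called higher within the genotype, and 0, 5 and 0 lower. Over all genes 1.37%, 9.42% and 4.26% were called higher, so the calls within genotypes lay mostly in WT.

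Genes of the earlier steps of epidermal shaping were called lower at about the share over all genes, 12.7%, and 0 were called higher. Of 31 genes of embryonic elongation, 4 were lower (12.9%), with a median of -0.27. By brightness, 0 of the 31 lay in the 2 dimmest classes. In classes 3, 4 and 5, 16.3%, 9.45% and 7.65% of probe sets were called lower. hmr-1, the cadherin of epidermal junctions, ran from 9.41 to 9.83 with a median of 9.75 on arrays 3 and 4, against 10.38 on double mutant array 1-2, 10.25 and 10.5 on daf-12 arrays 1 and 2, and 10.75 and 10.88 on WT arrays 1 and 2. All 6 arrays 3 and 4 lay below all 5 arrays 1 and 2, and the difference was -0.87 ± 0.12 (SE; limma adjusted p = 0.0014). The plasma membrane calcium pump gene mca-3 fell by 1.41. Of 23 genes of the embryonic apical matrix, the sheath that holds the embryo before its cuticle, 3 were lower, at a median of -0.19, and these were fbn-1, a fibrillin-like gene (-0.93), noah-2 (-0.81) and mlt-10 (-0.44). That count was 0 without WT array 1 or 4 and 1 without daf-12 array 3. Within genotypes that median was 0.18 in the double mutant, -0.23 in daf-12 and -0.64 in WT. The second probe sets of fbn-1 (-0.01) and mlt-10 (-0.10) were not called (limma adjusted p = 0.97 and 0.58).

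Regulators of the moulting cycle, which time each new cuticle, were called lower more often than higher. Of 16 measured, 2 were called higher and 6 lower, with a median of -0.25. nhr-23, a nuclear receptor required for moulting, ran from 6.08 to 7.50 with a median of 6.93 on arrays 3 and 4, against 8.17 on double mutant array 1-2, 7.12 and 8.46 on daf-12 arrays 1 and 2, and 8.64 and 8.25 on WT arrays 1 and 2. daf-12 array 1 lay among arrays 3 and 4 of the other genotypes but above those of daf-12. The difference was -1.35 ± 0.25 (SE; limma adjusted p = 0.0044). The transcription factor genes myrf-1 and lin-29 were at -1.24 and -1.03.

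Genes of the early embryo gave mixed counts. Of 24 genes of maternal supply and early fate, 0 were called higher and 10 lower, with a median of -0.40. par-1, a polarity kinase, ran from 8.41 to 9.02 with a median of 8.81 on arrays 3 and 4, against 10.37 on double mutant array 1-2, 10.28 and 10.27 on daf-12 arrays 1 and 2, and 10.59 and 10.28 on WT arrays 1 and 2. The sets were each tight and over 1 apart, with a difference of -1.58 ± 0.13 (SE; limma adjusted p = 0.00016). apx-1, a Notch ligand (-0.85), and oma-1, an oocyte zinc finger protein (-0.77), were also lower.

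Of 31 genes of gastrulation and lineage fate, 3 were called higher and 2 lower, with a median of -0.26. The 3 were hlh-1, the muscle factor of the MyoD family (1.05), vab-7, an even-skipped homologue (0.64), and ceh-13, a Hox gene (0.55). Of 44 genes of DNA replication and cell cycle, 5 were called higher and 3 lower, with a median of 0.07, and of 34 histone genes 8 were called higher and 1 lower, with a median of 0.16.

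The medians of these division genes had different signs by genotype, a difference between lists that was not tested. The median of the cell cycle list was 0.56 in the double mutant, -0.31 in daf-12 and 0.18 in WT, and that of histones 0.67, -0.40 and 0.23 in the same order. mcm-7, a subunit of the replicative helicase, stood at 9.90 and 9.54 on double mutant arrays 3 and 4, 8.20 and 8.14 on daf-12 arrays 3 and 4, and 9.58 and 8.81 on WT arrays 3 and 4, against 7.75 to 8.05 on arrays 1 and 2. Its difference was 1.97 in the double mutant, 0.16 in daf-12 and 1.33 in WT. A second probe set of mcm-7 was not called over all genotypes (0.24, limma adjusted p = 0.59). Leaving out double mutant array 1-2 gave 2 cell cycle genes and 4 histone genes called higher, leaving out WT array 4 gave 3 and 5, and leaving out WT array 1 gave 5 histone genes.

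**Figure D5:**
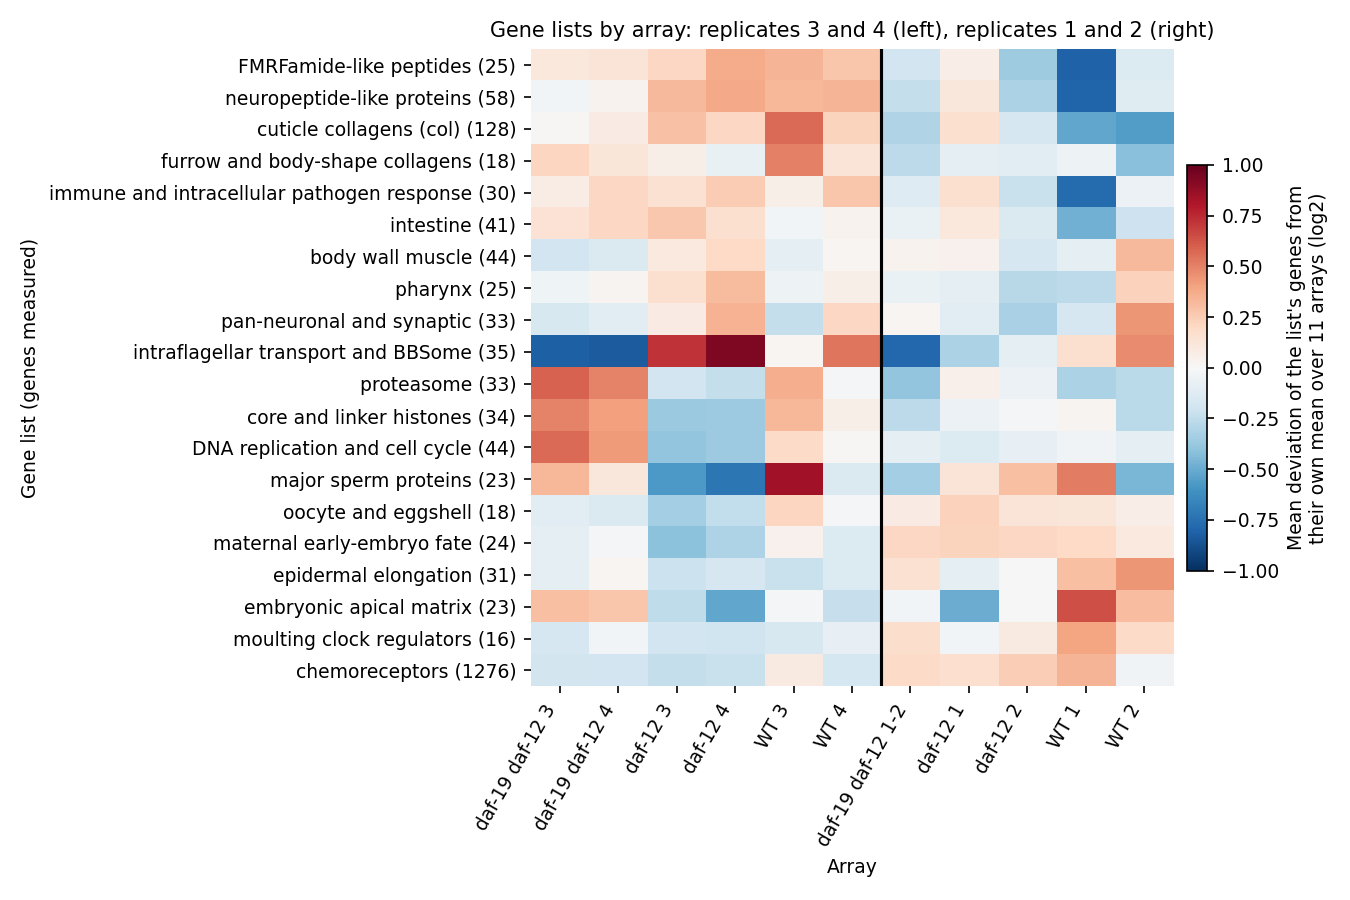
Each cell gives the mean log2 deviation of a list's genes from their own mean over 11 arrays, for 20 lists (rows, with genes measured) and 11 arrays (columns), with replicates 3 and 4 left of the line and replicates 1 and 2 right of it. Peptides and cuticle collagens are higher left of the line than right of it within each genotype, and the proteasome, histone and sperm lists are above 0 on double mutant arrays 3 and 4 and below 0 on daf-12 arrays 3 and 4.

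Over all genotypes, neuropeptide genes were called higher in replicates 3 and 4 well above the background share. Of 25 FMRFamide-like peptide genes, 11 were called higher (44%) and 0 lower, with a median of 0.63. flp-12 ran from 9.30 to 9.85 with a median of 9.44 on arrays 3 and 4, against 8.51 on double mutant array 1-2, 8.45 and 8.03 on daf-12 arrays 1 and 2, and 7.43 and 8.53 on WT arrays 1 and 2. All arrays 3 and 4 lay above all arrays 1 and 2, and the difference was 1.31 ± 0.20 (SE; limma adjusted p = 0.0022). flp-21 and flp-18 were at 0.98 and 0.96. Of 58 genes of neuropeptide-like proteins, 20 were called higher (34.5%) and 1 lower, with a median of 0.54 and nlp-27 at 1.43. Among 24 insulin-like peptides, 4 were called higher (2 without double mutant array 1-2 or WT array 1) and 2 lower, and ins-22 was at 1.07.

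The peptide counts leaned on single arrays. Without WT array 4 the flp count was 7. The nlp count was 12 without daf-12 array 2 or WT array 4, and 13 without daf-12 array 4 or WT array 1. The medians over all 25 settings stayed above 0, between 0.46 and 0.81 for flp and between 0.36 and 0.67 for nlp. By genotype the flp median was 0.30 in the double mutant, 0.40 in daf-12 and 0.90 in WT, with 0, 4 and 7 called higher. The nlp median was 0.20, 0.40 and 0.76 in that order, with 1, 6 and 13 called higher. Over all genes 1.37%, 9.42% and 4.26% were called higher. In daf-12, 1 flp gene was called lower, and in the double mutant 1 nlp gene. WT array 1 had the lowest mean deviation, at -0.81 for flp and -0.80 for nlp.

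Of 33 genes that most neurons use, for neuronal identity and synapses, 4 were called higher and 4 lower, with a median of 0.04. Within genotypes the median was -0.25 in the double mutant, 0.31 in daf-12 and -0.27 in WT, with 1, 6 and 1 called higher and 0, 1 and 2 lower in that order. Whether this list differs from the peptide lists was not tested. cpx-1, the complexin of synaptic vesicle release, ran from 8.01 to 9.08 with a median of 8.30 on arrays 3 and 4, against 7.41 on double mutant array 1-2, 7.32 and 6.71 on daf-12 arrays 1 and 2, and 6.57 and 7.81 on WT arrays 1 and 2. It was 2.46-fold higher on arrays 3 and 4 (limma adjusted p = 0.0065), with no overlap. The count called higher was 2 without daf-12 array 2 or 4 or WT array 1 or 4, and the count called lower was 1 or 2 without any single array other than daf-12 arrays 2 and 4 and WT array 1. unc-119, expressed throughout the nervous system, was at 1.08, and maco-1 at -0.86. The summed linear level of the 4 defining neuron markers was 4722 to 5864 on arrays 3 and 4 and 3955 to 4167 on arrays 1 and 2, and 1 of the 4, unc-119, was called. eat-4, the vesicular glutamate transporter, was at 1.15, and tdc-1 and bas-1, decarboxylases of amine synthesis, at 0.90 and 0.84, among 19 genes of transmitter synthesis and transport with 5 called higher, 3 of them without daf-12 array 3 or WT array 1 or 4, and 3 lower. A second probe set of eat-4 was not called (0.24, limma adjusted p = 0.48).

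Cilium genes need the genotype beside them, since the double mutant carries a mutation in daf-19. Of 35 genes of intraflagellar transport and the BBSome, 5 were called higher and 0 lower over all genotypes, with a median of 0.39. Within daf-12, 19 of the 35 were called higher, with a median of 0.81, beside a background of 9.42% of genes. The median was -0.08 in the double mutant and -0.06 in WT, with 1 gene called higher in each, and the difference between the genotypes' lists was not tested. Over all genotypes the count called higher was 2 without daf-12 array 1, 2, 3 or 4, 3 without double mutant array 3 or 4 or WT array 4, 9 without WT array 3 and 11 without WT array 2. As a mean over the list, arrays deviated by -0.82 and -0.83 on double mutant arrays 3 and 4, 0.72 and 0.93 on daf-12 arrays 3 and 4, and 0.02 and 0.54 on WT arrays 3 and 4, against -0.79 on double mutant array 1-2, -0.32 and -0.09 on daf-12 arrays 1 and 2, and 0.16 and 0.47 on WT arrays 1 and 2. The double mutant was low in both sets, while daf-12 arrays 3 and 4 lay above every WT array, and daf-12 arrays 1 and 2 lay below WT arrays 1 and 2. dyf-11, an intraflagellar transport gene, stood at 6.29 and 6.75 on double mutant arrays 3 and 4, 6.45 and 6.54 on daf-12 arrays 3 and 4, and 4.34 and 4.88 on WT arrays 3 and 4, against 4.98 on double mutant array 1-2, 4.25 and 4.36 on daf-12 arrays 1 and 2, and 4.56 and 4.79 on WT arrays 1 and 2. The WT arrays of both sets overlapped, while the mutant arrays did not.

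Chemoreceptor genes, most of them receptors of single sensory neuron types, were called lower. Of 1276 measured, 424 were called lower (33.2%) and 4 higher, with a median of -0.33. These genes are dim: their median level was 4.42, and 92.2% lay in the 2 dimmest of the 5 classes, where 11% of probe sets (class 1) and 23.9% (class 2) were called lower. srx-4, a member that was chosen by size, ran from 3.99 to 4.42 with a median of 4.19 on arrays 3 and 4, against 5.91 on double mutant array 1-2, 5.63 and 5.90 on daf-12 arrays 1 and 2, and 5.79 and 5.47 on WT arrays 1 and 2. The sets were over 1 apart, and the difference was -1.54 ± 0.13 (SE; limma adjusted p = 0.00017). The count of lower calls was 261 without double mutant array 1-2, 252, 247 and 274 without daf-12 array 2, 3 or 4, and 258 and 275 without WT array 1 or 4. As a mean over the list, WT array 3 deviated by 0.09, between WT array 1 at 0.34 and WT array 2 at -0.03, so the WT arrays overlapped, while those of daf-12 and the double mutant did not. How far the levels of such dim genes reflect their transcripts was not tested.

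Muscle, pharynx and epidermis gave counts near the background. Of 44 body wall muscle genes, 7 were called higher and 4 lower, with a median of 0.05, and 8 were lower without WT array 1. tni-3, a troponin I, ran from 8.66 to 9.98 with a median of 9.44 on arrays 3 and 4, against 8.10 on double mutant array 1-2, 8.66 and 7.61 on daf-12 arrays 1 and 2, and 7.81 and 8.66 on WT arrays 1 and 2. Only by a narrow margin did daf-12 array 1 and WT array 2 stay below the lowest of arrays 3 and 4, and the difference was 1.302 (limma adjusted p = 0.006). let-2, a type IV collagen of the basement membrane, and sca-1, the calcium pump of the sarcoplasmic reticulum, were lower, at -1.07 and -1.05. Among 25 pharynx genes 3 were called higher and 1 lower, and among 20 genes of epidermis and seam 1 higher and 2 lower.

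Of 41 intestine genes, 7 were called higher and 2 lower, with a median of 0.27. cpr-3, a cathepsin-like protease, was at 1.29 and lys-4, a lysozyme, at 1.13. ges-1, the gut esterase used as a marker, was at 0.41 (limma adjusted p = 0.036). The count called higher was 1 without daf-12 array 2 or 3, 2 without double mutant array 3 or 4 or WT array 4, 3 without WT array 1, and 4 without double mutant array 1-2 or daf-12 array 4. The summed level of the 4 intestine markers was 7692 to 9120 on arrays 3 and 4 and 6230 to 8717 on arrays 1 and 2, with overlap. Among 58 genes of the pharyngeal lining, 10 were called higher and 6 lower, at a median of 0.20. The higher count was 6 without double mutant array 3, daf-12 array 2 or 3 or WT array 1, and the lower count 1 to 3 without any daf-12 array or WT array 1 or 4. Among 18 genes of excretory canal and coelomocytes 3 were higher and 2 lower. The chloride channel gene exc-4 was at -0.82, while exc-9 was at 0.74 and clc-1 at 0.68. Among 24 glial genes 1 was higher and 3 lower, and the kinase gene lit-1 was at -1.08. Of 80 hedgehog-related genes, 6 were higher and 14 lower, with the patched-related ptr-25 at -1.21, and the counts were 2 or 3 higher without double mutant array 3, daf-12 array 3 or 4 or WT array 1 or 4, and 9 lower without double mutant array 1-2.

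Transcripts that come from the mother or her gonad were examined as markers of other cells in the preparation. Of 18 genes of oocyte and eggshell, 0 were called higher and 6 lower, with a median of -0.31. Within genotypes the median was -0.17 in the double mutant, -0.51 in daf-12 and -0.21 in WT. In that order 0, 3 and 0 genes were called lower, and 0, 0 and 1 higher. As a mean over the list, WT array 3 deviated by 0.21, above WT arrays 1 and 2 at 0.12 and 0.07. The WT arrays therefore overlapped on this list, while those of daf-12 and the double mutant did not. perm-4, a protein of the eggshell permeability barrier, ran from 6.89 to 7.60 with a median of 7.37 on arrays 3 and 4, against 8.35 on double mutant array 1-2, 8.17 and 8.42 on daf-12 arrays 1 and 2, and 8.32 and 7.68 on WT arrays 1 and 2. The difference was -0.89 (limma adjusted p = 0.0053), with no overlap. Of its 3 other probe sets, 1 was called in the opposite direction (0.49, adjusted p = 0.016) and 2 were not called (-0.35 and -0.16), so the probe sets of this gene disagree. The summed level of 3 oocyte markers was 157.9 to 233.7 on arrays 3 and 4 and 244.2 to 317.6 on arrays 1 and 2, without overlap, and 2 of them were called lower, oma-1 and puf-5 (-0.71). The count of 6 was 3 without double mutant array 3, daf-12 array 2, daf-12 array 3, WT array 1 or WT array 4. The part of such cells in the other results was not tested.

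Sperm and yolk genes did not differ in 1 direction. Of 23 major sperm protein genes 0 were called higher and 1 lower, with a median of -0.01 over all genotypes but 0.58 in the double mutant, -0.85 in daf-12 and 0.36 in WT. The summed level of 3 sperm markers was 127.3 to 357 on arrays 3 and 4 and 158.9 to 292.7 on arrays 1 and 2. The 5 vitellogenin genes, each read from its brightest probe set, included 0 called in limma. Of the dimmer vit-4 probe sets, 1 was called lower (-0.58, limma adjusted p = 0.019) and 1 was not called (-0.47, adjusted 0.085). The 4 yolk markers summed to 118.9 to 240.1 on arrays 3 and 4 and 149.9 to 223.6 on arrays 1 and 2. Of the germ line markers, glh-1 was called higher (0.67, limma adjusted p = 0.031), and pgl-1 and nos-2 were not called (-0.21 and -0.33). Of 37 genes of P granules and primordial germ cells, 4 were higher and 9 lower. The meiotic cohesin gene rec-8 was at -0.98, while ife-1 was at 0.87 and mes-2 at 0.75. The lower count was 4 or 5 without any single array other than double mutant array 4 and WT arrays 2 and 3, and the higher count 1 or 2 without double mutant array 1-2 or 4, daf-12 array 2, 3 or 4 or WT array 1. hch-1, which encodes the hatching enzyme, ran from 9.40 to 11.80 on arrays 3 and 4 and from 10.17 to 11.37 on arrays 1 and 2 and was not called (-0.47, limma adjusted p = 0.25). By genotype it stood at 11.69 and 11.80 on double mutant arrays 3 and 4, 10.03 and 9.40 on daf-12 arrays 3 and 4, and 10.42 and 10.02 on WT arrays 3 and 4, against 10.90 on double mutant array 1-2, 10.17 and 10.85 on daf-12 arrays 1 and 2, and 11.37 and 11.11 on WT arrays 1 and 2. The double mutant was thus higher in replicates 3 and 4 and the other genotypes lower, by 0.85, -0.79 and -1.015 (limma adjusted p within genotypes 0.22, 0.084 and 0.063), and none of these passed the test.

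Stress genes moved both ways. Of 18 heat shock and chaperone genes, 4 were called higher and 4 lower, with a median of 0.08. hsp-60, the mitochondrial chaperonin, ran from 8.94 to 9.98 with a median of 9.76 on arrays 3 and 4, against 10.90 on double mutant array 1-2, 11.67 and 11.24 on daf-12 arrays 1 and 2, and 10.92 and 11.86 on WT arrays 1 and 2. It lay lower on all 6, by 1.71 ± 0.25 (SE; limma adjusted p = 0.0017). hsp-70, a heat-inducible chaperone gene, went the other way, at 8.76 and 8.71 on double mutant arrays 3 and 4, 6.25 and 6.73 on daf-12 arrays 3 and 4, and 5.39 and 6.38 on WT arrays 3 and 4, against 6.36 on double mutant array 1-2, 5.02 and 4.61 on daf-12 arrays 1 and 2, and 4.54 and 5.30 on WT arrays 1 and 2. It was higher in each genotype, by 1.59 ± 0.27 (SE; adjusted p = 0.0032), though double mutant array 1-2 stood as high as some arrays 3 and 4 of the others. sti-1, a co-chaperone gene, was at -1.37.

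Of 30 genes of immune and intracellular pathogen response, 9 were called higher and 2 lower, with a median of 0.43, and WT array 1 had the lowest mean deviation of the list, at -0.77. irg-5, an infection response gene, was at 2.097 over all genotypes (limma adjusted p = 0.014), with 9.50 and 9.76 on daf-12 arrays 3 and 4, 9.32 and 10.41 on WT arrays 3 and 4, and 7.81 and 8.72 on double mutant arrays 3 and 4, against 8.15 and 6.63 on daf-12 arrays 1 and 2, 6.38 and 6.58 on WT arrays 1 and 2, and 8.31 on double mutant array 1-2. The double mutant arrays of both sets overlapped, and those of daf-12 and WT did not. abf-2, an antibacterial peptide gene, was at 1.22. Of 40 glutathione S-transferases, 4 were called higher and 1 lower, with gst-24 at 1.49. Among 220 C-type lectins 17 were higher and 26 lower, among 310 F-box genes 15 and 33, among 254 nuclear hormone receptors 19 and 27, among 73 cytochrome P450 genes 2 and 10, and among 64 UDP-glucuronosyltransferases 3 and 9. The lectin counts were 9 or 10 higher without double mutant array 3, daf-12 array 2 or 3 or WT array 1 or 4, 17 lower without daf-12 array 3 or 4, and 42 lower without WT array 2. The F-box counts were 8 or 9 higher without daf-12 array 1 or 3 or WT array 1, 23 higher without WT array 3, and 13 to 21 lower without any single array other than double mutant array 3 and WT arrays 2 and 3. The nuclear receptor counts were 12 higher without daf-12 array 4 or WT array 4, 30 higher without WT array 3, and 14 to 17 lower without any single array other than daf-12 array 1 and WT arrays 2 and 3. The UDP-glucuronosyltransferase counts were 4 or 5 lower without double mutant array 1-2 or daf-12 array 2, 3 or 4, and 7 higher without WT array 3.

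Of 33 proteasome genes, 8 were called higher and 1 lower, with a median of 0.35. pas-4, a subunit of the core, ran from 10.07 to 10.60 with a median of 10.36 on arrays 3 and 4, against 9.07 on double mutant array 1-2, 9.57 and 9.52 on daf-12 arrays 1 and 2, and 9.14 and 9.32 on WT arrays 1 and 2. The sets did not overlap, and the difference was 1.01 ± 0.16 (SE; limma adjusted p = 0.0025). The median of the list was 0.99 in the double mutant, -0.26 in daf-12 and 0.49 in WT, and the count called higher was 3 without double mutant array 1-2, 4 without WT array 1, and 5 without double mutant array 3 or 4 or daf-12 array 2 or 3.

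Ribosomal protein genes gave few calls, with 2 of 75 higher and 1 lower, and a median of 0.04. Of 39 genes of the mitochondrial respiratory chain 2 were higher and 6 lower (15.4%), with a median of 0.03. Within it, sdha-1, a subunit of succinate dehydrogenase, ran from 8.64 to 9.27 on arrays 3 and 4 and from 10.03 to 10.61 on arrays 1 and 2, by a difference of -1.46 ± 0.15 (SE; limma adjusted p = 0.00036), and the assembly gene cox-17 was at 1.17. Among 38 genes of metabolism and fat 1 was higher and 5 lower (3 without daf-12 array 2 or WT array 4), with pod-2, the acetyl-CoA carboxylase, at -1.25 beside fasn-1.

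Within single genotypes the counts were unequal. In daf-12, 1965 probe sets were called higher (8.71%) and 1879 lower (8.33%), a split that was 1796 to 2597 with each array centred on its median. In WT, 948 were called higher (4.20%) and 924 lower (4.10%). In the double mutant, where replicates 1 and 2 are 1 array and its variability is assumed to be that of the other groups, 319 were called higher (1.41%) and 102 lower (0.452%), a split that was 130 to 94 after quantile normalization. By named gene, 1.37% were called higher and 0.362% lower in the double mutant, 9.42% and 7.86% in daf-12, and 4.26% and 3.01% in WT. The SD of the differences was 0.57 in the double mutant, 0.68 in daf-12 and 0.58 in WT.

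These counts leaned on few arrays. In the double mutant, leaving out double mutant array 3 or 4 or daf-12 array 3 or 4 left 0 calls in either direction, leaving out daf-12 array 1 or 2 left 0 higher and 2 lower, and leaving out a WT array gave 796 or 849 higher and 356 or 401 lower. In daf-12, 77 higher and 30 lower were left without daf-12 array 3, 0 and 0 without daf-12 array 4, 120 and 62 without daf-12 array 1, 451 and 264 without daf-12 array 2, and 1059 and 862 without double mutant array 3 or 4, while leaving out WT array 3 or 4 gave 3011 higher and 2845 lower, and WT array 1 or 2 gave 2902 lower. In WT, 417 higher and 420 lower were left without double mutant array 3 or 4, 492 and 450 without daf-12 array 3 or 4, and 611 and 578 without WT array 3, and 1420 were lower without WT array 4.

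egl-30 and rrn-3.56 were called in every genotype, egl-30 at -3.63 in the double mutant, -3.48 in daf-12 and -4.03 in WT, and rrn-3.56 at 4.60, 5.50 and 4.59 in the same order. In the double mutant, C43D7.8 (2.50), tac-1, a centrosome and spindle gene (2.50), W03F9.4 (2.50), the lectin gene clec-1 (2.38) and hsp-70 (2.38) were the next highest called, and F21C10.9 (-2.77), kin-2 (-2.65), swt-2 (-2.58), dpy-1 (-2.40) and hecd-1 (-2.12) the next lowest. C43D7.8 stood at 7.59 and 7.36 on double mutant arrays 3 and 4 against 4.98 on array 1-2, and at 4.19 to 5.61 on the other 8 arrays. Those 2 double mutant arrays were apart from all others.

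In daf-12, rrn-3.1 (6.20), ule-3 (4.48), the MATH domain genes math-3 (3.26) and math-35 (3.10), and ifta-2, an intraflagellar transport GTPase gene (3.16), were the highest called beside rrn-3.56. ifta-2 stood at 8.54 and 8.96 on daf-12 arrays 3 and 4 against 5.27 and 5.90 on daf-12 arrays 1 and 2. In WT it was at 6.77 and 7.49 on arrays 3 and 4 against 6.12 and 7.56 on arrays 1 and 2, and in the double mutant it was at 4.59 and 4.92 against 4.56. The sets were far apart in daf-12, overlapped in WT and lay close in the double mutant. Beside egl-30, the lowest were pals-26 (-3.07), C09B8.4 (-2.999), W06A7.4 (-2.72), bris-1 (-2.46) and R06B9.5 (-2.46).

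In WT, irg-5 (3.38), nspe-5 (3.15), spig-15 (2.86), the collagen gene col-39 (2.84) and ZC395.5 (2.84) were the highest called after rrn-3.56. col-39 stood at 11.24 and 10.13 on WT arrays 3 and 4 against 7.74 and 7.95 on WT arrays 1 and 2, while the 7 mutant arrays of both sets lay between 9.83 and 11.30. WT arrays 1 and 2 were thus the low ones. Beside egl-30, the lowest were F26A10.2 (-2.46), the casein kinase gene csnk-1 (-2.30), ZC190.4 (-2.28), hpk-1 (-2.26) and tax-6 (-2.25).

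The test of the difference in shift between genotypes called 0 of 22548 probe sets (0.00%) with limma for each of the 3 pairs. At an unadjusted p under 0.05 it had 3889 of 22548 probe sets for daf-12 minus WT, 1803 for double mutant minus WT and 3984 for double mutant minus daf-12. For daf-12 minus WT, 2750 were called without WT array 4, 487 without WT array 1 and 15 without WT array 2. For double mutant minus daf-12, 1160 were called without WT array 3 or 4. By the smallest p, skr-8, an SKP1-related gene, shifted by -0.61 in daf-12 and 1.82 in WT (difference -2.44, adjusted p = 0.11), and math-26 had a difference of -3.23 between double mutant and daf-12 (adjusted p = 0.11). nlp-17, a neuropeptide gene, had a difference of -2.53 between double mutant and WT (adjusted p = 0.17).

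Across all probe sets, the 3 within-genotype shifts had the same sign in 10927 of 22548 (48.5%). The shifts of the genotypes share no arrays, and they correlated across probe sets at 0.571 between double mutant and WT, 0.435 between daf-12 and WT and 0.291 between double mutant and daf-12. These are descriptions across probe sets, which are not independent replicates, of arrays normalized together.

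Probe sets of the same gene mostly gave the same direction. Of 719 genes whose brightest probe set was called and that had others, the next brightest was also called in 355, in the same direction for 339 and in the opposite direction for 16, among them ule-3 and the neuropeptide gene nlp-6 (1.28 against -0.78). Dimmer probe sets were not counted here, and those of perm-4 and tdc-1 include 1 each called opposite to the brightest (0.49 and -0.42). Of the mutated genes, daf-19 was not called (-0.16, limma adjusted p = 0.46), and daf-12 was called lower in replicates 3 and 4 (-0.54, adjusted p = 0.046), with overlap between the sets. Whether these probe sets lie outside the mutated parts of the genes was not looked up, so they do not check the labels.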

How the data were processed

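Total RNA of whole 3-fold embryos was hybridised to Affymetrix C. elegans arrays. The authors deposited 1 table of log2 values per probe set, made with RMA per the submitters' processing notes, with no version given. Arrays have no read depth, and precision is limited by how many there are. All 12 columns were mapped by title and 0 were left unused. The identical columns of daf-19 daf-12 were counted once.

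Without the 77 control probe sets, 22548 were tested with limma 3.58.1 in R 4.3.3 (lmFit, eBayes), with genotype and set in the model (7 residual degrees of freedom). A second model with 6 groups (5 residual degrees of freedom) gave shifts within genotypes and their differences. Two-sided p-values from limma were corrected over the 22548 probe sets (Benjamini-Hochberg), with calls at 0.05. Scripts were tested on simulated data. The labels name no batch and no separate cultures for the replicates. The p-values therefore measure only the spread between these samples, which may be technical.

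Probe sets were named from the platform annotation: 20766 had 1 name, 887 had several and 895 had none. Gene names of WBcel235, used for names alone, included 20701 of them, with 0 changes. The 17118 named genes were each read from the probe set with the highest mean. Named genes were up to 15 called per direction with the largest difference whose sets did not overlap within any genotype, up to 3 called per list, up to 6 per direction within a genotype and, for differences between genotypes with none called, those of smallest p. Of 49 lists (3518 genes), 48 had measured genes, and the list of mitochondrially encoded genes had none under its names. The comparison, lists and tests were chosen with earlier results of these data known. The labels do not say whether the numbers pair the arrays. The step between arrays 3 and 4 correlated at 0.0721 to 0.211 between genotypes, and that between arrays 1 and 2 at -0.356 between daf-12 and WT. On arrays 3 and 4 the poly-A controls averaged 8.606 and 8.428 in the double mutant. They averaged 7.594 and 7.164 in daf-12, and 10.21 and 7.955 in WT. Alternatives covered normalization, filters, array weights, single arrays left out, genotypes left out and a replicate block.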

Additional observations from a re-analysis of the deposited data

Results flagged for a closer look

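In 4 of 170 groups of 4 arrays, 1 array stood apart from the other 3 of its genotype by more than Dixon's critical value. For 4 values from a single normal sample, that level is passed in about 1 in 20. These values came from 2 arrays of each replicate set, and the replicate sets differ, so that rate need not apply here. The gap as a share of the range was 0.898 for the heat shock list on daf-12 array 2 (-0.02, against -0.14 to -0.15 on the other 3), 0.866 for the 3′ minus 5′ signal of the worm controls on daf-12 array 1 (0.207, against 0.457 to 0.496), 0.841 for the epidermis list on WT array 1 (0.22, against 0.04 to 0.06) and 0.91 for the list of oxidative, osmotic, metal and hypoxia response on WT array 1 (-0.67, against -0.08 to -0.02).

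In 23 of the 48 measured lists, every array of replicates 3 and 4 moved 1 way in 1 genotype and the opposite way in another. Each difference given below has the double mutant on a side, where the other replicate set is 1 array. Each of them therefore rests on that array. How many lists would be flagged from the order of the arrays alone was not worked out. The differences were not tested. The mean shift in the double mutant exceeded that in daf-12 by 1.43 for major sperm proteins, 1.15 for the proteasome, 1.04 for histones, 0.862 for DNA replication and cell cycle, 0.571 for metabolism and fat, 0.507 for the respiratory chain, 0.491 for vitellogenins, 0.431 for endoplasmic reticulum chaperones, 0.4 for gastrulation and lineage fate, 0.366 for insulin-like peptides, 0.262 for C-type lectins, 0.235 for ribosomal proteins and 0.183 for oxidative, osmotic, metal and hypoxia response. The mean shift in daf-12 exceeded that in the double mutant by 1.07 for intraflagellar transport and the BBSome, 0.889 for the ciliary transition zone, 0.584 for pan-neuronal and synaptic genes, 0.416 for body wall muscle, 0.387 for receptor guanylyl cyclases, 0.306 for nuclear hormone receptors and 0.231 for glia. The double mutant exceeded WT by 0.917 for the apical matrix and 0.199 for collagen processing, and WT exceeded the double mutant by 0.798 for glutathione S-transferases.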

How the results depend on the processing

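Each called gene named as highest or lowest, or as a list member chosen by size, kept its direction under the alternatives run. The markers ges-1 and puf-5 and the mutated gene daf-12 were called but were not followed under them. List medians near 0 did not: over 25 settings the sign of the cell cycle median changed in 6 (-0.10 to 0.32), of histones in 3 (-0.08 to 0.43), of pan-neuronal genes in 6 (-0.28 to 0.24), of intraflagellar transport in 1 (-0.04 to 0.58) and of the embryonic apical matrix in 1 (-0.39 to 0.02), while those of col genes, flp, nlp, immune, maternal, elongation, moulting, oocyte and chemoreceptor genes kept theirs. The set comparison over all genotypes had 1543 to 2856 higher and 1918 to 3684 lower probe sets when single arrays were left out. Within the double mutant these ranges were 0 to 849 and 0 to 401, within daf-12 0 to 3011 and 0 to 2902, and within WT 417 to 1316 and 420 to 1420. Differences between genotypes had 0 to 2750 calls for daf-12 minus WT, 0 to 0 for double mutant minus WT and 0 to 1160 for double mutant minus daf-12. Treating all 12 columns as separate arrays, which counts 1 array as 2 without spread, gave 2443 higher and 1648 lower in the double mutant, 3178 lower in daf-12, 1583 and 1585 in WT, and 40, 1 and 1772 calls for the 3 differences in the same order. Array weights gave 4434 and 5236 over all genotypes, 0 and 0 in the double mutant, 4095 and 4561 in daf-12, 1551 higher in WT and 24 for daf-12 minus WT. With a mean of at least 6, which tests fewer probe sets, 1067 were lower over all genotypes and 1164 higher and 625 lower in daf-12. Leaving out probe sets that may match several transcripts, which also tests fewer, gave 1522 higher over all genotypes, 33 and 15 in the double mutant and 536 and 565 in WT. In the double mutant, quantile normalization gave 130 higher, and an intensity trend 77 and 29. With daf-12 and WT arrays alone 1321 were higher and 1618 lower, and with double mutant and WT arrays alone, chosen after seeing the data, 1031 and 829. Apart from the fewer arrays or probe sets where named, the cause was not tested. Median shifts under the 3 scalings were -0.01 as deposited, -0.0003 after quantile normalization and -0.03 after centring. acdh-2 was called in 9 of 23 settings, C50F7.5 in 22 of 24, tbb-6 in 23 of 24, and F35E12.10 and C09B8.4 in 22 of 23. The other 25 genes named as highest or lowest were called in every setting that measured them. Among list members not named as highest or lowest, calls were lost in 220 gene results, and in 264 with single arrays left out. Whether a gene was called stayed the same in 1360 and 1142, and a call was gained in 3 and 2.

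With the replicate number as a random block, 3912 probe sets were higher and 4591 lower, at a consensus correlation of -0.163. Whether the numbers pair the arrays is not in the labels.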
